A study of Homo sapiens with 8 samples.

Results

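The dual-specificity phosphatases (DUSPs) that act on MAP kinases were followed through 8 RNA sequencing libraries of 2 human thyroid carcinoma cell lines, BCPAP and CAL-62. The family was taken by name as 10 genes, DUSP1, DUSP3, DUSP4, DUSP5, DUSP6, DUSP7, DUSP8, DUSP10, DUSP14 and DUSP16, wherever a line's deposited table listed them. Of these 10, 9 were listed, each in both tables, among 12715 genes listed in all. DUSP8 was in neither table and has no values here. The comparison of interest was THZ1, a covalent inhibitor of the transcriptional kinase CDK7 that also reaches CDK12 and CDK13, against its vehicle DMSO in each line. THZ1 was given at 100 nM for 6 h, and each of the 4 groups (BCPAP with DMSO, BCPAP with THZ1, CAL-62 with DMSO, CAL-62 with THZ1) had 2 libraries. The labels call both lines anaplastic and state a duration for THZ1 only. BCPAP was grown in RPMI 1640 with 10% serum and CAL-62 in DMEM with 20% serum, so that cell line and culture medium cannot be told apart. No label states that replicates were separate cultures, so the spread behind each p-value may be technical. In bulk RNA, fewer cells carrying a transcript and less of it per cell cannot be told apart either.

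MAP kinases are switched on when a MAP kinase kinase phosphorylates a threonine and a tyrosine in the activation loop, and DUSPs switch them off by removing both phosphates. The inducible members are nuclear (DUSP1, DUSP4, DUSP5) or cytoplasmic and ERK-selective (DUSP6, DUSP7). DUSP10 and DUSP16 prefer JNK and p38, and DUSP3 and DUSP14 are small enzymes without the MAP kinase-binding domain. Several of these genes are transcribed in response to ERK itself and make short-lived transcripts, which closes a negative feedback loop. In thyroid carcinoma the ERK branch is commonly overactive.

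Levels are the deposited RPKM-type values, that is, reads per length of the gene and per library total as scaled by the authors. Genes can thus be set beside each other. A change is the THZ1 mean less the DMSO mean of log2(value + 1), fitted with limma over all genes, and a gene was called at a Benjamini-Hochberg adjusted p under 0.05. Each library held 16682509 to 19989730 reads in listed genes. Thyroid and epithelial identity was partly visible. PAX8 and the keratins KRT7, KRT8 and KRT18 were listed in both lines, NKX2-1 and FOXE1 in BCPAP alone, and TG, TSHR, SLC5A5 and CDH1 in neither table. None of 6 blood and none of 4 endothelial markers was listed, and 1 of 6 fibroblast markers was (COL1A1, 6.08 to 7.78 in BCPAP and 31.0 to 62.3 in CAL-62). A gene entered a table on its DMSO mean, which started just above 1, so a member too low under DMSO could not appear and counts over listed members are descriptions.

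The DMSO libraries of CAL-62 stood apart from each other in the genes closest to this family. All 17 measured immediate early genes (those transcribed within minutes of a stimulus, DUSPs left out) were higher in DMSO replicate 2 than in DMSO replicate 1, with a median ratio of 2.87. Their summed level was 693 and 2134 in the DMSO libraries and 1507 and 1212 in the THZ1 libraries. EGR1, singled out after its values were seen, read 9.47 and 382 under DMSO. In BCPAP 5 of 17 were higher in DMSO replicate 2, with a median ratio of 0.89. Changes in CAL-62 are therefore also given without single libraries for the members, and for several of the genes named from other lists, and the part these genes play in the DUSP values was not tested.

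DUSP1, a nuclear phosphatase of ERK, JNK and p38 and itself an immediate early gene, had the highest mean of the 9 members under DMSO in both lines. In BCPAP it read 101 and 131 under DMSO and 65.7 and 75.2 under THZ1. In CAL-62 it read 18.4 and 141 under DMSO (803 and 6730 reads) and 15.6 and 7.16 under THZ1 (435 and 271 reads). The groups did not overlap in either line, but the lower CAL-62 DMSO library sat next to the higher THZ1 library. Of 7950 genes with a mean of at least 5, 0.189% had DMSO replicates as far apart as the 7.68-fold of DUSP1, against a median of 1.21-fold. The mean was 1.65-fold lower with THZ1 in BCPAP (116 ± 21.0 against 70.5 ± 6.71, SD, n = 2) and 7.02-fold lower in CAL-62 (79.7 ± 86.8 against 11.4 ± 5.95, SD, n = 2). Neither difference passed the limma test. The change was -0.71 (SE 0.80, 95% interval -2.55 to 1.14, adjusted p = 0.938) in BCPAP. It was -2.17 (SE 0.80, 95% interval -4.02 to -0.33, adjusted p = 0.121) in CAL-62. The CAL-62 value rested on which DMSO library was used: it was -3.61 (adjusted p = 0.0542) without DMSO replicate 1 and -0.74 (adjusted p = 0.403) without DMSO replicate 2. The 250 bases before the annotated start of DUSP1 (RefSeq, GRCh38.p14, chr5:172771196-172771445, minus strand) are shown because this member had the widest range of values. Capitals mark the cyclic AMP response element TGACGTCA, its core TGACG on either strand, the E-box CACGTG and the TATA box TATAAA.
DUSP1: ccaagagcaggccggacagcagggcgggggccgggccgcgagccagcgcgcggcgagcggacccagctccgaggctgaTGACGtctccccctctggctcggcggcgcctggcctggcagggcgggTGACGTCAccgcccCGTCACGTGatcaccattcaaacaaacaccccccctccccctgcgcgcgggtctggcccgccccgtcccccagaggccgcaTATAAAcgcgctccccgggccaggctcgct
The full element began 125 bases before the start and the TATA box 30 bases before it. The core was read 4 times, at 172, 125, 122 and 111 bases before the start, with the middle pair inside the full element, and the last overlapped the E-box at 108. Among 35116 promoter windows of the same length, 1.65% held the full element, 21.2% its core, 6.34% the E-box and 10.7% the TATA box on either strand.

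DUSP5, a nuclear phosphatase selective for ERK, had estimates on opposite sides of 0 in the lines. In BCPAP it read 30.2 and 20.4 under DMSO and 40.6 and 29.4 under THZ1. In CAL-62 it read 27.7 and 85.3 under DMSO and 28.5 and 10.2 under THZ1. The groups overlapped in both lines. In CAL-62 the replicates numbered 1 were level and those numbered 2 were 8.39-fold apart. The change was 0.46 (SE 0.59, 95% interval -0.90 to 1.83, limma adjusted p = 0.938) in BCPAP and -1.46 (SE 0.59, 95% interval -2.82 to -0.09, limma adjusted p = 0.148) in CAL-62, neither called. Without CAL-62 DMSO replicate 2 the latter was -0.66 (adjusted p = 0.555), and without THZ1 replicate 2 it was -0.76 (adjusted p = 0.427).

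DUSP4, the nuclear relative of DUSP1, was the 1 member called between the lines. Under DMSO it read 17.3 and 10.7 in BCPAP and 2.25 and 1.83 in CAL-62. With THZ1 it read 19.8 and 11.3 in BCPAP and 1.71 and 0.379 in CAL-62, the last from 52 reads (exact Poisson 95% interval of the value 0.283 to 0.497, which covers counting error only). In BCPAP the groups overlapped and the number 1 libraries were the higher in each. In CAL-62 both THZ1 libraries lay under both DMSO libraries, at 75.8% of the DMSO value in number 1 and 20.7% in number 2. The limma change was 0.13 (SE 0.41, adjusted p = 0.975) in BCPAP and -0.65 (SE 0.41, adjusted p = 0.317) in CAL-62. The CAL-62 change was -0.17 (limma adjusted p = 0.809) without THZ1 replicate 2 and -1.14 (adjusted p = 0.168) without THZ1 replicate 1. The BCPAP change turned to -0.19 without BCPAP DMSO replicate 2 and to -0.25 without BCPAP THZ1 replicate 1.

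**Figure D1:**
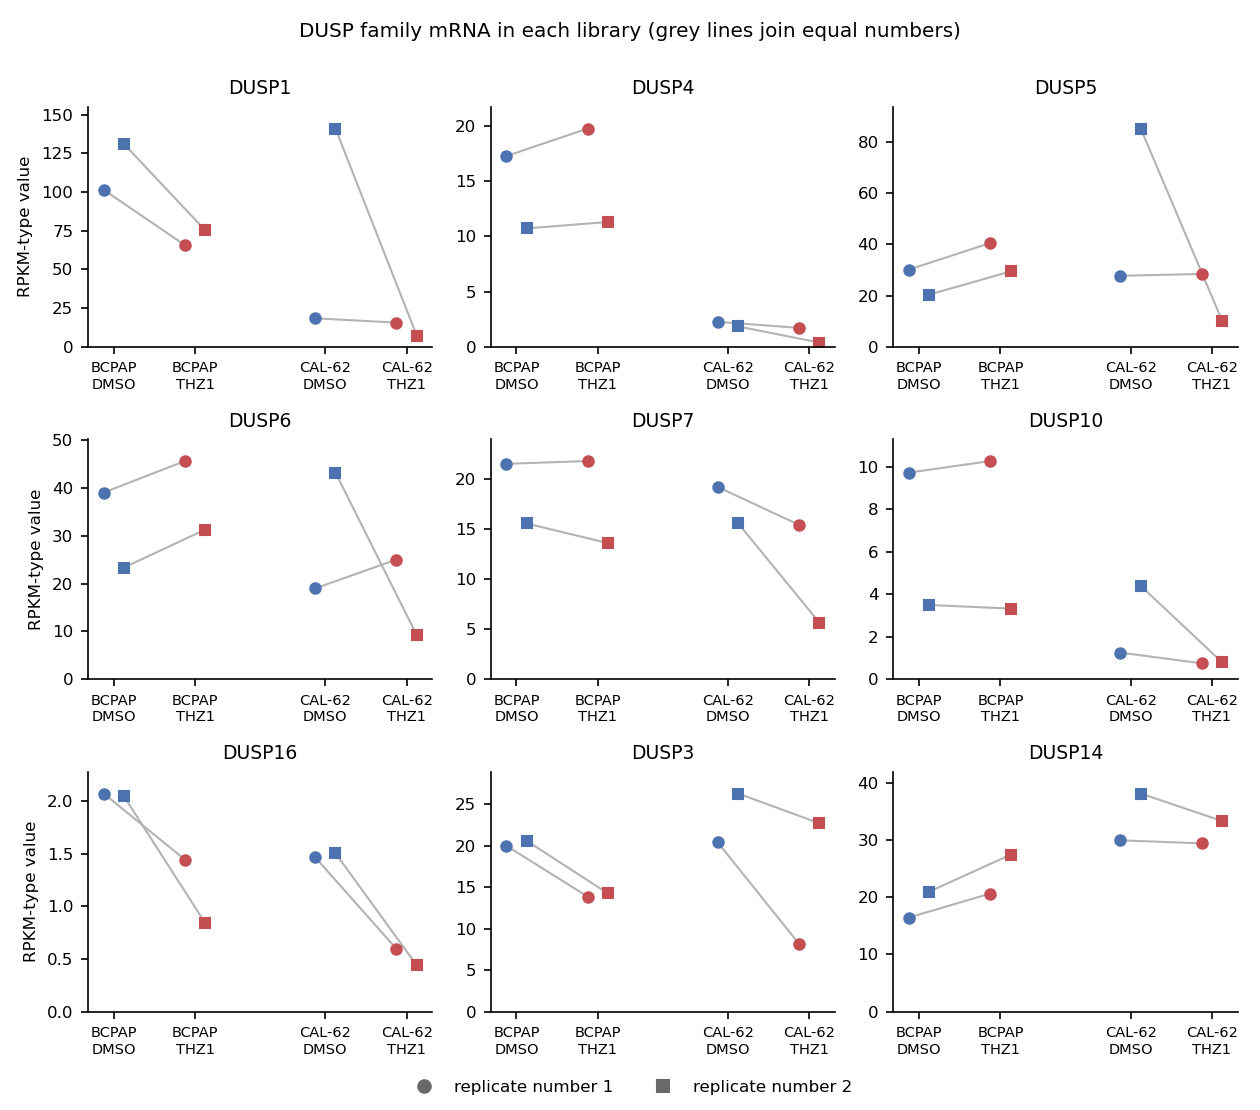
RPKM-type value (vertical axis) of each of the 9 listed members in each library, by line and treatment (horizontal axis), with circles for replicate number 1, squares for number 2 and grey lines joining equal numbers. In these units DUSP1, DUSP5 and DUSP6 had the widest gaps in CAL-62 under DMSO, where number 2 read 141, 85.3 and 43.2 and number 1 read 18.4, 27.7 and 19.0. As a ratio DUSP10 (3.51-fold) lay above DUSP5 (3.08-fold) and DUSP6 (2.28-fold).

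DUSP6, the cytoplasmic ERK phosphatase often read as a gauge of ERK output, had a layout like that of DUSP5. Its values in BCPAP were 39.0 and 23.3 under DMSO and 45.6 and 31.3 under THZ1. In CAL-62 they were 19.0 and 43.2 under DMSO and 25 and 9.20 under THZ1. Again the groups overlapped in both lines, and in CAL-62 the replicate numbers pointed opposite ways: log2(value + 1) differed by 0.38 in number 1 and by -2.12 in number 2. The limma change was 0.31 (SE 0.53, 95% interval -0.92 to 1.54, adjusted p = 0.949) in BCPAP and -0.87 (SE 0.53, 95% interval -2.10 to 0.36, adjusted p = 0.305) in CAL-62. Leaving out CAL-62 DMSO replicate 1, DMSO replicate 2 or THZ1 replicate 2 gave -1.44 (adjusted p = 0.225), -0.30 (adjusted p = 0.810) and -0.19 (adjusted p = 0.827). The 250 bases before its start (RefSeq, GRCh38.p14, chr12:89352502-89352751, minus strand) are printed beside those of DUSP1 because the genes differ in the letters searched. It holds no match to any of the 8 motifs and so carries no capitals.
DUSP6: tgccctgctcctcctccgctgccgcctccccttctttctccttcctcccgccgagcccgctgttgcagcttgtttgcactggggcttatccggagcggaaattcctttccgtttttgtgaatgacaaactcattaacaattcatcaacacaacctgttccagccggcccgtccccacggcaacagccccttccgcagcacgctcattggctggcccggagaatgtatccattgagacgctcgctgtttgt
The motifs searched, on both strands, were those spelled out for DUSP1, the AP-1 site TGANTCA (6.57% of windows), the CArG box (1.16%), the ETS core CCGGAA (14.5%) and the GC box GGGCGG (42.6%). A match is a description of the letters and no match says only that they are not in the window.

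DUSP7, the second cytoplasmic ERK-selective enzyme, read 21.5 and 15.5 under DMSO and 21.8 and 13.6 under THZ1 in BCPAP. In CAL-62 it read 19.2 and 15.5 under DMSO and 15.4 and 5.64 under THZ1. The CAL-62 groups did not overlap, though by a narrow margin between 15.4 and 15.5. The limma change was -0.08 (SE 0.43, adjusted p = 0.985) in BCPAP and -0.81 (SE 0.43, 95% interval -1.81 to 0.19, adjusted p = 0.247) in CAL-62. With the replicate number as a block within each line, the CAL-62 change was called (SE 0.25, limma adjusted p = 0.0428). Without THZ1 replicate 2 it was -0.16 (adjusted p = 0.788).

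DUSP10, which prefers JNK and p38, divided the libraries by replicate number in BCPAP. Its values there were 9.72 and 3.49 under DMSO and 10.3 and 3.32 under THZ1, so the numbers lay further apart than the treatments. In CAL-62 it read 1.25 and 4.39 under DMSO and 0.748 and 0.796 under THZ1, from 34 to 341 reads. Both CAL-62 THZ1 libraries were lower than both DMSO libraries. The limma change was 0.01 (SE 0.61, adjusted p = 0.999) in BCPAP and -0.98 (SE 0.61, 95% interval -2.38 to 0.42, adjusted p = 0.310) in CAL-62. The block within each line called it in CAL-62 (SE 0.29, limma adjusted p = 0.0409), whereas the block shared by both lines did not (limma adjusted p = 0.217). Without DMSO replicate 2 the CAL-62 change was -0.35 (adjusted p = 0.806), and without DMSO replicate 1 it was -1.61 (adjusted p = 0.234).

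DUSP16, a JNK and p38 phosphatase that shuttles between nucleus and cytoplasm, was the lowest member in every group and the most even between replicates under DMSO. It read 2.07 and 2.05 under DMSO and 1.45 and 0.840 under THZ1 in BCPAP. In CAL-62 it read 1.47 and 1.51 under DMSO (200 and 224 reads) and 0.597 and 0.441 under THZ1 (52 and 52 reads). The THZ1 libraries lay below the DMSO libraries in both lines. The mean was 1.80-fold lower in BCPAP (2.06 ± 0.019 against 1.14 ± 0.43, SD, n = 2) and 2.87-fold lower in CAL-62 (1.49 ± 0.027 against 0.519 ± 0.11, SD, n = 2). Because adding 1 to so low a value shrinks its log2 change, the fitted figures look small: the change was -0.53 (SE 0.22, 95% interval -1.03 to -0.03, limma adjusted p = 0.932) in BCPAP. It was -0.71 (SE 0.22, 95% interval -1.21 to -0.21, limma adjusted p = 0.0819) in CAL-62, the smallest adjusted p of the 9 there. DUSP16 was called in CAL-62 with the replicate block within each line (SE 0.17, limma adjusted p = 0.0214). Its CAL-62 change ran from -0.79 to -0.64 when each CAL-62 library was left out in turn.

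DUSP3, a small phosphatase of ERK and JNK, had replicates within 3% of each other in BCPAP. It read 20.0 and 20.6 under DMSO and 13.9 and 14.3 under THZ1 there, without overlap. In CAL-62 it read 20.4 and 26.3 under DMSO and 8.17 and 22.7 under THZ1. There the groups overlapped and THZ1 replicate 1 was the low library, whereas THZ1 replicate 2 was the low one for DUSP1, DUSP4, DUSP5, DUSP6, DUSP7 and DUSP16. The limma change was -0.50 (SE 0.40, 95% interval -1.43 to 0.43, adjusted p = 0.932) in BCPAP, where the SE carries the spread of all 4 groups. It was -0.71 (SE 0.40, 95% interval -1.64 to 0.22, adjusted p = 0.268) in CAL-62. Without CAL-62 THZ1 replicate 2 it was called at -1.40 (adjusted p = 0.0369), and without THZ1 replicate 1 it was -0.03 (adjusted p = 0.951).

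DUSP14, the other small enzyme, was the steadiest member in CAL-62. It read 29.9 and 38.1 under DMSO and 29.4 and 33.3 under THZ1 there, with overlap. In BCPAP it read 16.4 and 21.0 under DMSO and 20.6 and 27.4 under THZ1, also with overlap. The limma change was 0.34 (SE 0.24, 95% interval -0.21 to 0.90, adjusted p = 0.932) in BCPAP and -0.11 (SE 0.24, 95% interval -0.66 to 0.45, adjusted p = 0.791) in CAL-62. Its CAL-62 sign turned to 0.06 without DMSO replicate 2. The 250 bases before its start (RefSeq, GRCh38.p14, chr17:37489641-37489890, plus strand) are shown as those of the steadiest member in CAL-62. None of the motifs put in capitals for DUSP1 was read in it, and 82.8% of its bases are G or C, against 74.4% for DUSP1 and 57.2% for DUSP6.
DUSP14: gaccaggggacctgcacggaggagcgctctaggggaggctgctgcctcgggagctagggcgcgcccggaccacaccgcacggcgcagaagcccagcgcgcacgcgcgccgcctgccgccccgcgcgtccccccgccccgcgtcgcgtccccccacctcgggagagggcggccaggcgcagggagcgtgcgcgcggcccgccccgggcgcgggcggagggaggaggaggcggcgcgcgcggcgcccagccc
GC boxes were read 5 times in this window, 5 times in that of DUSP3, 4 in DUSP1, 2 in DUSP7, 1 in DUSP16 and 0 in DUSP6. Windows were read for 7 of the 9 listed members, DUSP10 with 2 starts. DUSP4 and DUSP5 were not used here. Of the 7, DUSP1 was the one with the full cyclic AMP response element, the E-box or the TATA box, and DUSP3 the one other member with the TGACG core.

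As a set, the members were read against all genes in each line. In BCPAP none of the 9 members was called by limma, as none of the 11743 genes tested was (0% called). Changes were positive for 5 members and negative for 4, with a median of 0.0079 against 0.067 over all genes. At an unadjusted p under 0.05 DUSP16 passed, against 4.01% of all genes, and limma-voom on the recovered reads called 0 members. DUSP1, DUSP3 and DUSP16 were lower in every THZ1 library than in any DMSO library, and 16.4% of all genes were. The signs of DUSP4, DUSP6, DUSP7 and DUSP10 turned with a single BCPAP library left out: between 3 and 7 members were then negative, and the median ran from -0.40 to 0.24. The signs also depended on the scaling: with mitochondrially encoded genes as the reference 8 of 9 were negative, and the median of all genes itself moved to -0.30.

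In CAL-62 none of the 9 members was called by limma either, where 4.62% of 11362 genes were (4.04% lower, 0.581% higher). All 9 changes were negative, from -2.17 for DUSP1 to -0.11 for DUSP14, with a median of -0.81 against 0.03 over all genes, of which 48.2% were negative. DUSP2 and DUSP9 are MAP kinase phosphatases outside the family as taken by name, and were listed in CAL-62 alone. Their changes there were -0.91 (SE 0.51, limma adjusted p = 0.283) and 0.45 (SE 0.27, adjusted p = 0.307), at mean values of 4.20 and 1.83. DUSP1, DUSP5 and DUSP16 passed an unadjusted p under 0.05, as 30.1% of all genes did, and limma-voom called 0 members. DUSP1, DUSP4, DUSP7, DUSP10 and DUSP16 had groups without overlap, all lower with THZ1, against 27.4% of all genes. Of these members, DUSP10 and DUSP16 had THZ1 means of 0.772 and 0.519. Genes were listed on a DMSO mean above 1, so neither could have been listed with its groups reversed. The same entry rule acts on the 27.4%. With 1 library left out in turn, 8 or 9 members were negative and the median ran from -1.14 to -0.64. Each of the 5 other scalings moved the median of all genes down, to between -0.81 and 0.0056, which favours negative signs. The signs alone under them therefore say nothing of stability. Less the median of all genes, the members' median was -0.88 to -0.82 under them, with all 9 members under that median. A scaling shifts all genes nearly alike, so this was close to fixed in advance. Calls depended on the scaling: with ribosomal protein genes as the reference 5 members were called lower (DUSP1, DUSP3, DUSP5, DUSP14 and DUSP16), at a median of all genes of -0.77. Under that reference 3080 of 11459 genes were called, 99.9% of them lower. With the replicate block 3 members were called lower, DUSP7, DUSP10 and DUSP16, where 40.2% of all genes were called and 18.1% were called lower.

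**Figure D2:**
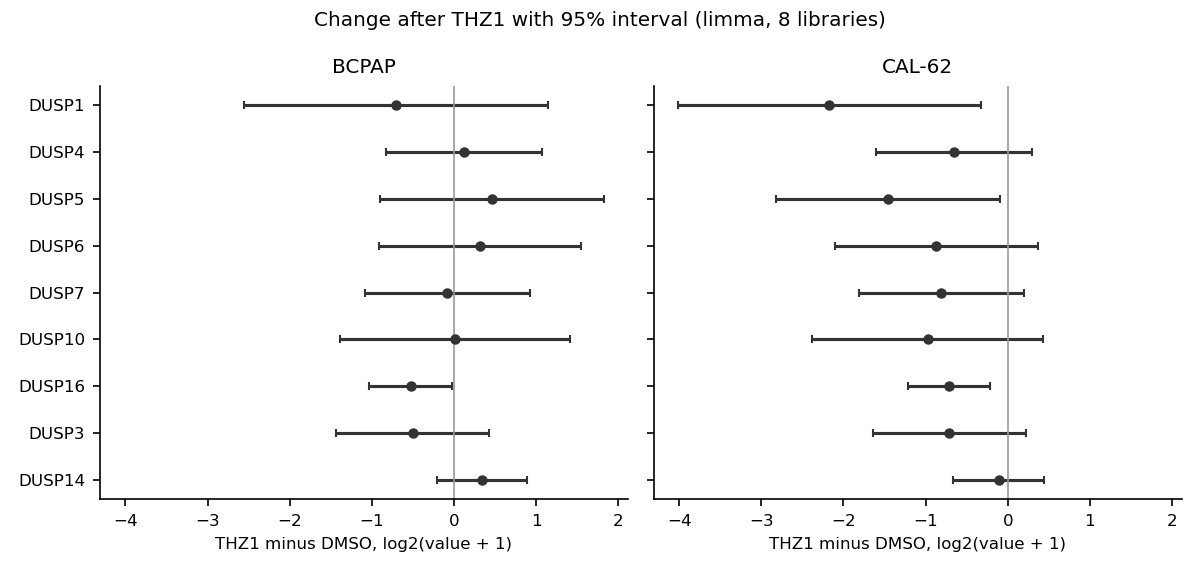
Change after THZ1 in log2(value + 1) (horizontal axis) for each member, with points for the limma estimate and bars for its 95% interval, BCPAP left and CAL-62 right. All 9 CAL-62 estimates lie below 0 as deposited, and the intervals of DUSP1, DUSP5 and DUSP16 exclude 0 before adjustment over all genes.

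The CAL-62 pattern was not the same in each replicate number. In number 1 the members' median change was -0.27, 7 of 9 were negative and DUSP5 (0.04) and DUSP6 (0.38) were positive. In number 2 all 9 were negative with a median of -1.32, led by DUSP1 at -4.12 and DUSP5 at -2.95. The median of all genes was 0.06 in number 1 and 0.07 in number 2. Lower values in both numbers were seen for 7 members, and for 34.8% of all genes. DUSP16 (-0.63 and -0.80) was nearly equal in the numbers, and DUSP3 was the member with the more negative change in number 1 (-1.22 against -0.20). In BCPAP the members' medians were 0.07 and -0.06 in the numbers. There the numbers lay furthest apart for DUSP16 (-0.33 and -0.73), and DUSP7 (0.02 and -0.18) and DUSP10 (0.07 and -0.06) had opposite signs.

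**Figure D3:**
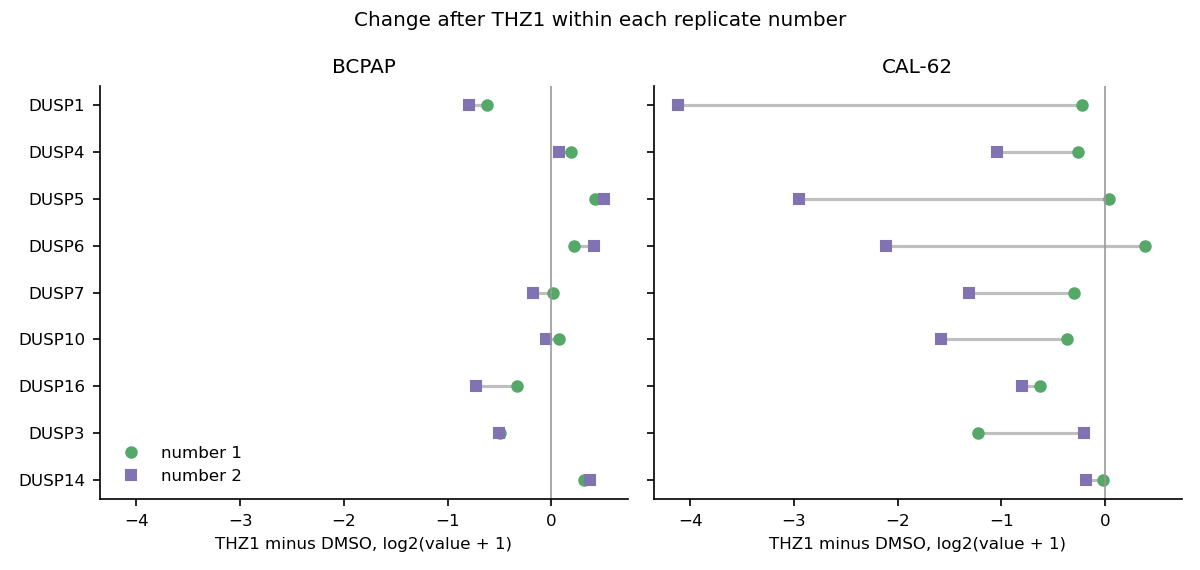
THZ1 minus DMSO in log2(value + 1) (horizontal axis) within replicate number 1 (green circles) and number 2 (purple squares), for each member in BCPAP (left) and CAL-62 (right). In BCPAP the widest pair is DUSP16 at -0.33 and -0.73, whereas in CAL-62 DUSP1 runs from -0.23 to -4.12 and DUSP5 from 0.04 to -2.95.

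Whether the lines differed in their response was tested as the difference of the changes, CAL-62 minus BCPAP. All 9 differences were negative, from -1.92 for DUSP5 to -0.19 for DUSP16, with a median of -0.78 against -0.01 over all genes. Without BCPAP THZ1 replicate 1 DUSP16 turned to 0.02, and without CAL-62 THZ1 replicate 1 DUSP3 turned to 0.47. None was called by limma, nor was any of 10653 genes (0%), and limma-voom called 0. No member passed an unadjusted p under 0.05, against 5.28% of all genes. DUSP5 came nearest, at -1.92 (SE 0.83, 95% interval -3.85 to 0.01, adjusted p = 0.843). DUSP1 had -1.47 (SE 1.13, 95% interval -4.08 to 1.14, adjusted p = 0.843). The DUSP1 difference was -0.03 without CAL-62 DMSO replicate 2 and -2.90 without CAL-62 DMSO replicate 1, and that of DUSP5 was -1.13 and -2.71. Over all 8 left-out libraries the members' median ran from -1.27, without CAL-62 THZ1 replicate 1, to -0.35, without CAL-62 DMSO replicate 2. These intervals are wide, so the lines are not shown to respond alike.

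The lines were also compared under DMSO, which the values allow because 1 set of size factors fitted all 8 libraries within 5%. DUSP4 was lower in CAL-62 by 2.27 on the log2(value + 1) scale (SE 0.41, 95% interval -3.22 to -1.32, limma adjusted p = 0.0131). It was the 1 member called, where 14.1% of 10653 genes were (7.81% lower and 6.32% higher in CAL-62). The call was lost without BCPAP DMSO replicate 1 (-1.95, adjusted p = 0.0836), CAL-62 DMSO replicate 1 (-2.37, adjusted p = 0.0615) or CAL-62 DMSO replicate 2 (-2.17, adjusted p = 0.0923), with the direction kept. The DUSP14 estimate was higher in CAL-62, with a difference of 0.83 (SE 0.24, 95% interval 0.28 to 1.38, limma adjusted p = 0.0564). DUSP14 was called with the replicate block within each line (limma adjusted p = 0.00458), as 40.6% of all genes were. DUSP10 had -0.99 (SE 0.61, limma adjusted p = 0.300), called with the block within each line (adjusted p = 0.0382) and not with the block shared by both (adjusted p = 0.211). DUSP1 had -1.15 (SE 0.80, limma adjusted p = 0.363), but 0.29 (adjusted p = 0.724) without CAL-62 DMSO replicate 1 and -2.59 (adjusted p = 0.0348) without CAL-62 DMSO replicate 2. For DUSP6 and DUSP7 the differences were -0.07 (SE 0.53) and -0.08 (SE 0.43), and they turned positive with the sum of reads or ribosomal protein genes as the scale.

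Ranked by mean value, the order of the members was not the same in the 4 groups. In BCPAP under DMSO the order was DUSP1, DUSP6, DUSP5, DUSP3, DUSP14, DUSP7, DUSP4, DUSP10 and DUSP16. DUSP1 stood clear at the top, DUSP10 and DUSP16 clear at the bottom, and from DUSP6 to DUSP4 each neighbour overlapped the next. With THZ1 in BCPAP, DUSP1, DUSP6 and DUSP5 stayed on top in that order and DUSP3 moved from the fourth to the seventh place. In CAL-62 under DMSO the first 5 (DUSP1, DUSP5, DUSP14, DUSP6 and DUSP3) each overlapped the next, so no leader could be told. With THZ1 in CAL-62 DUSP14 stood first without overlap (29.4 and 33.3), and DUSP5, DUSP6, DUSP3, DUSP1 and DUSP7 followed with overlapping ranges. Below them came DUSP4, DUSP10 and DUSP16, all under 2.

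The summed level of the 9 members was even in BCPAP and uneven in CAL-62. It was 258 and 248 under DMSO and 240 and 207 under THZ1 in BCPAP. In CAL-62 it was 140 and 357 under DMSO and 125 and 89.8 under THZ1. The second DMSO library of CAL-62 was the highest of the 8 and the second THZ1 library the lowest. DUSP1 made up 39.4% and 52.8% of the sum under DMSO and 27.4% and 36.4% under THZ1 in BCPAP. In CAL-62 its share was 13.2% and 39.5% under DMSO and 12.5% and 7.97% under THZ1, and that of DUSP14 was 21.4% and 10.7% under DMSO and 23.5% and 37.1% under THZ1.

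**Figure D4:**
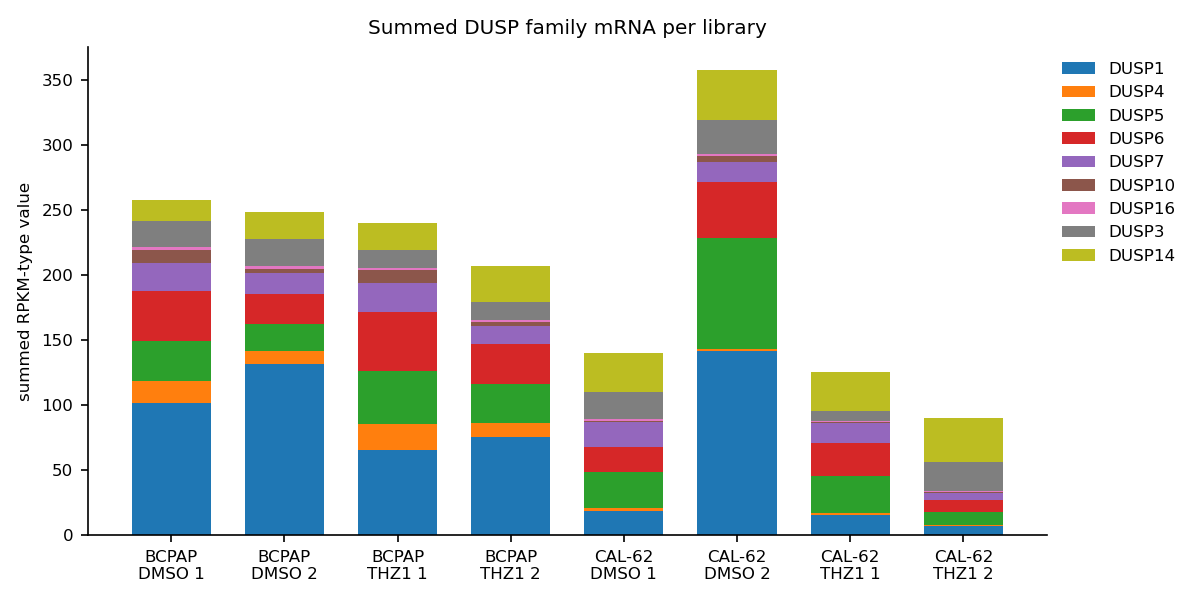
Summed RPKM-type value (vertical axis, from 0) of the 9 members in each of the 8 libraries (horizontal axis), with 1 colour per member. CAL-62 DMSO 2 reaches 357, the highest of all, whereas CAL-62 DMSO 1 at 140 lies close to CAL-62 THZ1 1 at 125.

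Some members varied together across libraries and others did not. After subtracting each line's mean, Pearson's r of log2(value + 1) over the 8 libraries was 0.970 for DUSP5 with DUSP6 and 0.962 for DUSP4 with DUSP7. It was 0.822 for DUSP1 with DUSP5 and 0.721 for DUSP1 with DUSP6, and lowest, at -0.386, for DUSP7 with DUSP14. These are descriptions over few points that share library and depth, and CAL-62 DMSO 2 is an extreme in several of them. Among 7921 genes listed in both lines with a mean of at least 5, those most like DUSP6 were ITPRIP (r = 0.994), ZNF800 (0.977) and AMMECR1L (0.975). For DUSP5 they were ITPRIP (0.977), DUSP6 (0.970) and SOX9 (0.963). For DUSP1 they were CTDP1 (0.971), CEBPB (0.971) and BCAR3 (0.968). DUSP4 was most like ZCCHC10 (0.998), FASTKD3 (0.996) and USP8 (0.995), and DUSP7 most like TBP (0.996), CWC22 (0.993) and ACBD3 (0.991). DUSP3 went with LOC339290 (0.992), HNRPDL (0.990) and FAM160B2 (0.989), and DUSP14 with VAMP2 (0.964), TBC1D7 (0.963) and FAM100B (0.956).

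The rest of the pathway was read from lists of its other genes. Of the MAP kinases themselves, the substrates of the DUSPs, 10 were tested in BCPAP and 11 in CAL-62, and 0 were called in either line. In CAL-62, 7 were positive and 4 negative with a median of 0.25, and the block within each line called 3 higher and 1 lower, where it called 40.2% of all genes. MAPK3, which encodes ERK1, read 20.3 and 22 under DMSO and 33.7 and 41.5 under THZ1 in CAL-62 (change 0.80, SE 0.36, limma adjusted p = 0.184). MAPK8, which encodes JNK1, read 12.9 and 11.8 under DMSO and 28.0 and 17.7 under THZ1 (change 0.80, SE 0.30, limma adjusted p = 0.126). MAPK7, which encodes ERK5, read 10.6 and 15.6 under DMSO and 4.45 and 7.38 under THZ1 (change -1.04, SE 0.30, limma adjusted p = 0.0763). These 3 genes were named for the size of their changes. The MAPK7 groups did not overlap, lower with THZ1, as for 27.4% of all genes. The groups of MAPK6, an atypical MAP kinase, overlapped (13.2 and 14.1 against 14.6 and 7.97, change -0.31, SE 0.32, limma adjusted p = 0.541, and 0.09 without THZ1 replicate 2). The median ratio of DMSO replicate 2 to 1 over the MAP kinases was 0.96 in CAL-62. Among the DUSPs it was 7.68 for DUSP1, the farthest, 1.29 for DUSP3, the middle member, and 0.81 for both DUSP4 and DUSP7. In BCPAP MAPK8 had a change of 0.68, MAPK7 of -0.38 and MAPK12 of -0.24, with limma adjusted p-values of 0.932 to 0.941.

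Of the MAP kinase kinases, which act upstream, 1 of 6 tested in CAL-62 was called lower and none higher, where 4.62% of all genes were called. MAP2K7, the activator of JNK, read 20.6 and 23.3 under DMSO and 7.97 and 10.5 under THZ1 (change -1.17, SE 0.23, limma adjusted p = 0.0362). The MAP2K7 call was lost, with the direction kept, on the 4 libraries of CAL-62 alone (limma adjusted p = 0.0878) and with any of 5 of the 8 libraries left out. These were CAL-62 DMSO replicate 1 (-1.25, limma adjusted p = 0.135), CAL-62 DMSO replicate 2 (-1.08, adjusted p = 0.226), CAL-62 THZ1 replicate 1 (-0.99, adjusted p = 0.0924), BCPAP DMSO replicate 1 (adjusted p = 0.0699) and BCPAP DMSO replicate 2 (adjusted p = 0.0707). With the block within each line MAP2K7 was called lower, and the ERK activators MAP2K1 (0.61, limma adjusted p = 0.0146) and MAP2K2 (0.58, adjusted p = 0.0307) were called higher in CAL-62, against 40.2% of all genes. In BCPAP it read 19.5 and 24.4 under DMSO and 13.3 and 14.8 under THZ1 (change -0.60, SE 0.23, limma adjusted p = 0.932), and 0 of 7 kinase kinases were called. In BCPAP MAP2K1 and MAP2K2 had changes of 0.52 and 0.19, and MAP2K5, the activator of ERK5, had -0.26. The 5 measured phosphatases of MAP kinases from other families had positive fitted changes in both lines and 0 were called. In CAL-62 the replicate numbers differed: 0 of 5 were negative in number 1 (median 0.56) and 3 of 5 in number 2 (median -0.22). In CAL-62 PPP2CA, a catalytic subunit of PP2A, had a change of 0.39 (SE 0.28, limma adjusted p = 0.376). Of 8 measured dual-specificity phosphatases outside the MAP kinase group, 0 were called in either line, with medians of -0.03 in BCPAP and 0.05 in CAL-62. The block called DUSP23 higher (0.60, limma adjusted p = 0.0478) and DUSP18 lower (-0.86, limma adjusted p = 0.0134) in CAL-62, again against 40.2% of all genes.

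ERK-induced genes other than DUSPs gave no calls among 14 tested in either line. Their median was 0.09 in BCPAP, with 9 of 14 positive, and -0.40 in CAL-62, with 4 of 14 positive. The block called 1 higher and 3 lower in CAL-62, against 40.2% of all genes. FOSL1, an ERK-induced AP-1 subunit, read 384 and 288 under DMSO and 171 and 79.0 under THZ1 in CAL-62 (change -1.51, SE 0.35, limma adjusted p = 0.0527). In BCPAP FOSL1 read 224 and 252 under DMSO and 142 and 148 under THZ1 (change -0.71, SE 0.35, limma adjusted p = 0.932). The CAL-62 change of FOSL1 was -2.06 without THZ1 replicate 1 and -0.96 without THZ1 replicate 2. FOSL1 had its higher CAL-62 DMSO value in replicate 1, where DUSP1, DUSP5 and DUSP6 had their lower one. PHLDA1 read 40.1 and 147 under DMSO and 55.3 and 17.1 under THZ1 in CAL-62, a layout like that of DUSP5 (change -1.29, SE 0.65, limma adjusted p = 0.224). SPRY4, a feedback inhibitor of receptor signalling, read 16.4 and 22.9 under DMSO and 42.0 and 19.3 under THZ1 (change 0.53, SE 0.37, limma adjusted p = 0.36), and EPHA2, an ephrin receptor, had a change of 0.41 (SE 0.35, limma adjusted p = 0.449). Without CAL-62 DMSO replicate 2 PHLDA1 was at -0.36, and without DMSO replicate 1 EPHA2 was at -0.08. Without THZ1 replicate 1 SPRY4 was at -0.01.

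Immediate early genes, the class to which DUSP1 belongs, gave 0 calls among 17 tested in each line. In CAL-62 1 of 17 was negative in replicate number 1, with a median of 1.25, and 12 of 17 were negative in number 2, with a median of -0.75. FOS read 2.90 and 14.9 under DMSO and 29.8 and 74.6 under THZ1 (change 2.61, SE 0.74, limma adjusted p = 0.0865). JUNB read 12.6 and 78.3 under DMSO and 183 and 150 under THZ1 (change 2.34, SE 0.71, limma adjusted p = 0.0805). FOS and JUNB were named as the largest increases of the list. DUSP1 had both THZ1 libraries below both DMSO libraries, though narrowly (18.4 against 15.6), as did 27.4% of all genes. MCL1, a survival factor with a short-lived transcript, read 99.2 and 161 under DMSO and 69.4 and 18.3 under THZ1 (change -1.79, SE 0.55, limma adjusted p = 0.0855). JUN read 38.8 and 111 under DMSO and 43.2 and 19.2 under THZ1 (change -1.16, SE 0.51, limma adjusted p = 0.173), a layout close to that of DUSP5. With the block 5 immediate early genes were called higher and 1 lower in CAL-62, against 40.2% of all genes called. Without CAL-62 DMSO replicate 1 the change of JUNB was 1.07 (limma adjusted p = 0.193) and that of FOS 1.60 (adjusted p = 0.22). Without DMSO replicate 2 that of JUN was -0.41 (adjusted p = 0.649). MCL1 was called without THZ1 replicate 1, at -2.72 (limma adjusted p = 0.0321), and stood at -0.85 (adjusted p = 0.179) without THZ1 replicate 2. In BCPAP 13 of 17 were positive with a median of 0.29, led by JUNB (23.7 and 19.6 under DMSO, 53.5 and 95.6 under THZ1, change 1.69, SE 0.71, limma adjusted p = 0.932).

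**Figure D5:**
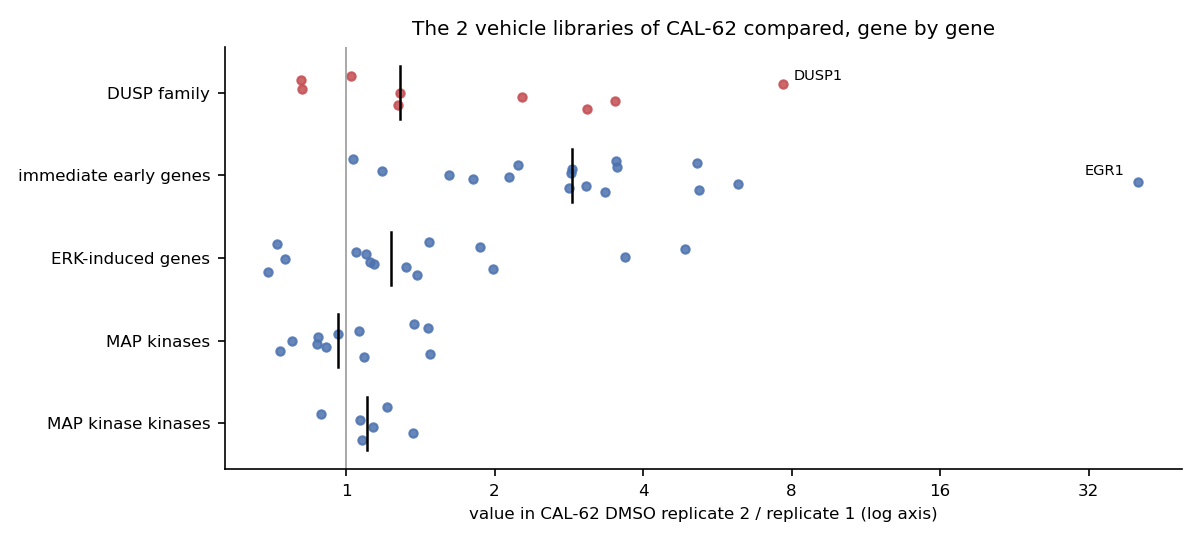
Ratio of DMSO replicate 2 to DMSO replicate 1 in CAL-62 (horizontal log axis) for each measured gene of the DUSP family and 4 other lists, with 1 point per gene and black bars at the medians. All 17 immediate early genes lie right of 1, with EGR1 at 40.4. DUSP1 at 7.68 is the farthest of the DUSPs, whose middle member is DUSP3 at 1.29, and the MAP kinases centre on 0.96.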

How the data were processed

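RNA from 8 libraries (4 groups of 2) was selected with oligo(dT) before library construction, per the labels' protocols. Per the submitters' processing notes Bowtie2, DESeq2 and hg19 were used, with no role, order or version; neither the annotation nor a strand setting is given in the sources used here. The authors deposited 1 value per gene and library with no statement of its unit. The values behave as RPKM on a scaled total. Each equals a whole read number over a gene length and a scaled library total, within 0.002 reads for all 12715 genes. Reads could thus be recovered. A sense and an antisense gene that overlap cannot be told apart without the strand setting. The authors' library totals follow median-of-ratios size factors, so a change in total mRNA per cell would not show in these RPKM values. Chi-square per degree of freedom between replicate libraries was 66.2 to 118, beyond counting error, and each library was fitted as its own sample. That spread cannot show whether the replicates were separate cultures.

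limma 3.58.1 in R 4.3.3 was fitted with a mean-variance trend to log2(value + 1), with a mean per group, after leaving out genes whose mean value was under 1. All 9 listed members passed that filter. A spread shared by the 8 libraries was used, and genes in 1 table were fitted on that line's 4 libraries. Two-sided p-values were adjusted over all genes tested (Benjamini-Hochberg). The script was tested on simulated data. What a replicate number stands for is not in the labels. Same-numbered libraries deviated together (correlation of deviations from the group means 0.78 in BCPAP, 0.46 in CAL-62 and 0.43 to 0.52 across lines), so the fit with the number as a block is given where it changes a call; it leaves few residual degrees of freedom. Alternatives covered the pseudocount, the filter, 5 scalings, limma-voom, the trend, each line alone, the block and each library left out. Of the other lists, called members are named, and where there are none, up to 2 with the largest change in each direction at a mean of at least 5, except that 1 such gene is not reported here. DUSP2 and DUSP9 are named besides these, below that mean. The members and lists were chosen with earlier results of these data known. Promoter windows are from RefSeq. Python 3.11.15 with pandas 2.3.3 was used for summaries.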

Additional observations from a re-analysis of the deposited data

How the results depend on the processing

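No member was called in BCPAP, nor for the difference between the lines, under any of the alternatives run for them. In CAL-62 the count of members called with THZ1 was 0 as fitted, 1 with the sum of reads as the scale (DUSP16), 5 with ribosomal protein genes and 1 with mitochondrially encoded genes (DUSP1) as the reference, and 0 to 1 when each library was left out in turn (DUSP3 without CAL-62 THZ1 replicate 2). Between the lines under DMSO it was 1 as fitted, 2 with the sum of reads or ribosomal protein genes (DUSP4 and DUSP14), and 0 to 1 with each library left out. The replicate block within each line gave 3 members in CAL-62 and 3 between the lines, and the replicate block shared by both lines gave 2 (DUSP7 and DUSP16) and 2 (DUSP4 and DUSP14); neither changed another call on a member. The count of all genes called in CAL-62 moved from 525 to 196 with a mean of at least 5, 1508, 799, 3080 and 267 with the sum of reads, the upper quartile, the ribosomal and the mitochondrial reference, 0 on the line's own libraries, 4563 and 4045 with the block within and across lines, and 0 to 833 with a library left out (9 without CAL-62 DMSO replicate 1 and 0 without CAL-62 DMSO replicate 2). Of the calls, 87.4% were lower as deposited, 97.2% to 99.9% under those 4 scalings, 45.1% and 47.4% with the block within and across lines, 64.4% and 64.3% without BCPAP THZ1 replicate 1 and 2, and 87.5% to 100% with the other libraries whose absence left calls. Between the lines 1505 moved to 159 with the mitochondrial reference, 4322 and 3873 with the block within and across lines, and 275 to 1897 with a library left out. The share lower in CAL-62 was 55.3% as deposited and 42.0%, 21.1% and 78.6% with the sum of reads, the ribosomal and the mitochondrial reference, and 53.1% to 69.5% with a library left out. Genes tested in CAL-62 numbered 11362 as fitted, and 11404, 11459 and 11396 with the sum of reads, the ribosomal and the mitochondrial reference. The causes of the shifts in calls were not tested. The members had 34 to 6730 reads per library, the fewest for DUSP10 in CAL-62 THZ1 replicate 1.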
